A study of Spodoptera frugiperda with 15 samples.

Results

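The homeobox and homeotic genes of the fall armyworm, Spodoptera frugiperda, were taken as the genes whose deposited description contains the word homeobox or homeotic in any case, which gave 128 of the 20784 genes in the table. RNA was sequenced from whole bodies of wild-type insects in 15 libraries, 3 for each of 5 groups. The groups were emamectin benzoate, an avermectin that opens glutamate-gated chloride channels, tetrazolidamide, spelt as in the labels, cyantraniliprole, a diamide that acts on the ryanodine receptor, spinetoram, a spinosyn that acts on nicotinic acetylcholine receptors, and the control. The labels name no dose, time, age or stage for any group, and do not say whether a group's libraries are separate animals or pools, so every p-value reflects only how far these samples spread, which may be technical.

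Homeobox genes encode transcription factors that bind DNA through a homeodomain. The Hox genes among them lie in a cluster and give segments of the body their identity from head to abdomen, with proteins of the TALE class, such as extradenticle and homothorax, binding DNA beside them. Others of the family set up eyes, brain, appendages, muscle and gut in the embryo, and some keep working in larval tissues. Homeotic also appears in the names of proteins without a homeodomain, such as the polyhomeotic proteins of the Polycomb group, which hold Hox genes silent where they are not used.

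Library totals ran from 50600821 to 77183281 units of the authors' estimated counts, in which 1 read pair adds about 3.76 units. Of 42 germ line, 15 neuron, 16 muscle and 18 fat body marker genes none was at 0 in all 15 libraries, while 12 of 97 midgut and 1 of 76 cuticle genes were. In such bulk samples, fewer cells of a type and less RNA per cell cannot be told apart.

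Most homeobox genes were at low levels. Of the 128 genes, 30 had no reads in any library (23.4%, against 13.1% of all genes in the table). Most of those 30, namely 21, stood in a single row of 23 similarly described genes, given below. Another 30 averaged above 0 and under 0.1 FPKM, and 32 averaged 0.1 to under 1 FPKM, where FPKM is fragments scaled to transcript length and library size. A further 28 averaged 1 to under 5 FPKM, 4 averaged 5 to under 10 FPKM, and 4 reached 10 FPKM or more (3.13%, against 18.6% of all genes). For the genes without reads, 3 read pairs over the 15 libraries would be 0.0115 read pairs per 1000000, and counting error alone allows a level up to that. Reads were found in all 15 libraries for 51 of the genes. The count test had enough reads for 81 of the 128, and the mean FPKM of those 81 had a median of 0.618, against 2.66 over all tested genes. The 47 genes left out of the test were the 30 without reads and 17 with few.

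Grouped by the class that each description gives, levels overlapped widely between classes. All 8 TALE genes were tested and 7 averaged 1 FPKM or more. They included extradenticle (LOC118263058), whose product escorts Hox proteins to DNA in Drosophila, at 25.0 FPKM, and homothorax (LOC118275404), which carries extradenticle into the nucleus there, at 8.96 FPKM. The araucan-like gene (LOC118263101, 3.801 FPKM) and caupolican (LOC118263131, 2.22 FPKM) belong to the Iroquois family, which patterns bristles and wing veins in Drosophila. Of 24 paired-like genes, many with parts in head, eye and nerve cells, 16 were tested and 9 averaged at least 1 FPKM. Of 31 NK-like and related genes, 20 were tested and 4 averaged at least 1 FPKM. The 5 engrailed and invected genes, which mark the rear of each segment, all averaged below 0.22 FPKM, the highest being an engrailed-like gene (LOC118280104) at 0.216 FPKM. Of 6 LIM class genes, 1 averaged at least 1 FPKM, an Lhx5 gene (LOC118274815) at 1.59 FPKM. The 6 genes that matched by word alone, being polyhomeotic, spalt-major or female sterile proteins by description, were all tested.

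Of 37 genes of the Hox class, 21 had no reads in any library, most of them in a row of similarly described genes. On sequence NC_049722.1, in the coordinates of the authors' files, whose build is not given in the sources used here, 42 genes lie from proboscipedia (LOC118270003, 4779632 to 4824074) to Abdominal-B (LOC118269589, 6045384 to 6097102), and 33 of them are homeobox genes. Directly after proboscipedia stands an unbroken row of 23 homeobox genes within 114732 bases (4874018 to 4988749). Of these, 13 are described as Hox-A3-like, 7 as Hox-A4-like and 3 as ventral anterior homeobox 1-like, the last counted as NK-like. In moths and butterflies, extra homeobox genes derived from zerknüllt, called special homeobox genes and known in embryos, lie between proboscipedia and Deformed. Whether these 23 are such genes was not tested, since their sequences were not used here. Of the 23, 21 had no reads in any of the 15 libraries, and the others had reads in 1 library each, 3 units together. Of the same 23 genes, 8 were found in the RefSeq table of assembly AGI-APGP_CSIRO_Sfru_2.0 and 15 were not. Further on, a proboscipedia-like gene (LOC118269959), a Hox-A3a-like gene (LOC118269829) and a second Sex combs reduced-like gene (LOC118270000) also had no reads, which made 24 of the 33.

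**Figure D1:**
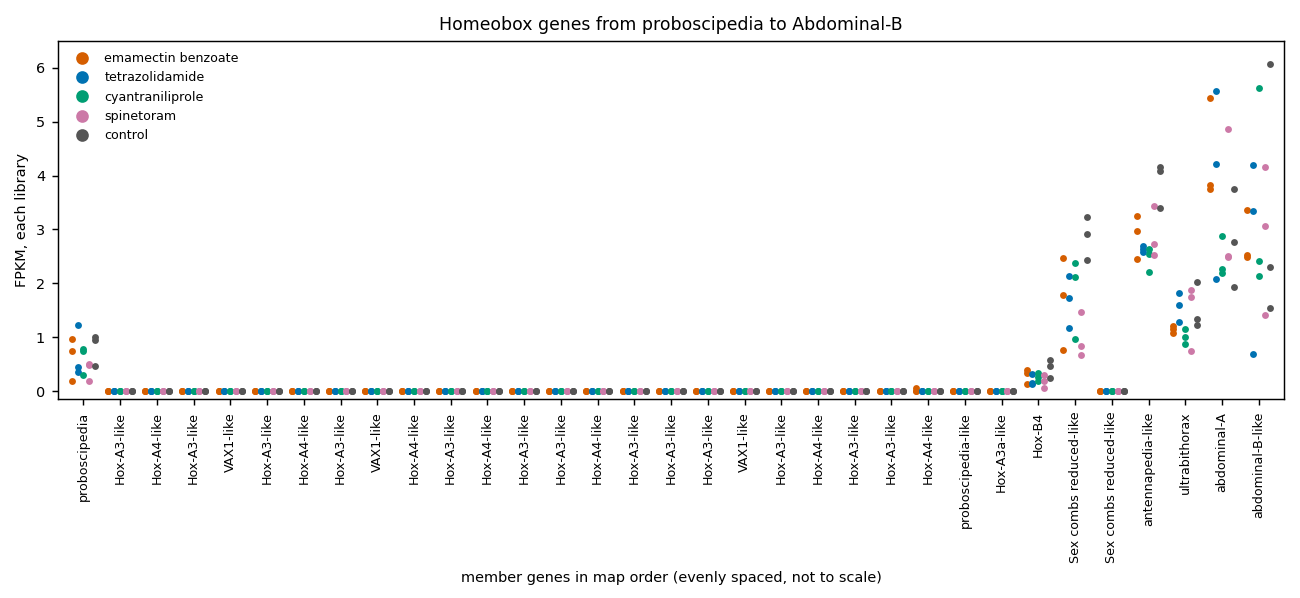
FPKM in each of the 15 libraries (points, coloured by group, treated groups left of control) for the 33 homeobox genes from proboscipedia to Abdominal-B, in map order with even spacing. The row of 23 genes lies at or near 0, and the 6 genes from Hox-B4 to Abdominal-B that have reads have means above it, with the largest spread between libraries in Abdominal-B.

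Among the cluster's genes with reads in every library, proboscipedia and the Hox-B4 gene had the lowest means. The means of the genes behind them did not rise in map order. Proboscipedia, which shapes mouthparts, averaged 0.622 FPKM, and the Hox-B4 gene (LOC118269989), of the vertebrate group that corresponds to Deformed, averaged 0.272 FPKM. Sex combs reduced (LOC118269757), which acts in the labial and first thoracic segments, averaged 1.80 FPKM, Antennapedia (LOC118269630), a thoracic gene, 2.95 FPKM, and Ultrabithorax (LOC118269552), of the hind thorax, 1.34 FPKM. Abdominal-A (LOC118269765) averaged 3.37 FPKM and Abdominal-B 3.02 FPKM. These means were close beside their spread: Abdominal-B alone ran over the libraries between 0.683 FPKM in tetrazolidamide 3 and 6.06 FPKM in control 3, and the ranges of the last 5 genes overlapped, except that the lowest Antennapedia library (2.21 FPKM) was above the highest of Ultrabithorax (2.03 FPKM).

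Sex combs reduced was at 1.79, 2.47 and 0.756 FPKM with emamectin benzoate, 1.17, 1.73 and 2.14 with tetrazolidamide, 2.37, 0.973 and 2.12 with cyantraniliprole, 1.46, 0.674 and 0.839 with spinetoram, and 3.23, 2.43 and 2.91 in control. Each tetrazolidamide, cyantraniliprole and spinetoram library was below each control library, while emamectin benzoate overlapped control. The gene was not called in any comparison with control. With spinetoram the log2 fold change was -1.43 (SE 0.46, adjusted p = 0.0995 by the quasi-likelihood test of edgeR). Abdominal-A was at 3.82, 3.75 and 5.45 FPKM with emamectin benzoate, 5.56, 4.21 and 2.07 with tetrazolidamide, 2.19, 2.26 and 2.88 with cyantraniliprole, 2.50, 2.49 and 4.86 with spinetoram, and 1.93, 3.76 and 2.76 in control. Its groups overlapped except emamectin benzoate with cyantraniliprole, and it passed no test. Abdominal-B was at 2.52, 2.50 and 3.36 FPKM with emamectin benzoate, 3.35, 4.19 and 0.683 with tetrazolidamide, 2.13, 5.62 and 2.41 with cyantraniliprole, 1.41, 3.07 and 4.15 with spinetoram, and 1.54, 2.30 and 6.06 in control. All groups of this abdominal gene overlapped control, the emamectin benzoate group being the narrowest, and its adjusted p for any difference among the 5 groups was 0.999. Of the 2 Hox-D11-like genes, named after a vertebrate Hox gene, LOC118270497 had reads in 8 libraries and LOC118270214 in 13, and neither exceeded 0.403 FPKM.

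The most abundant genes with a Hox name were the 2 labial-like genes, LOC118269817 (12345861 to 12375026) and LOC118269819 (13069179 to 13098344), which lie on the same sequence as the cluster but outside it. Labial is the foremost Hox gene of the head, and in Drosophila it also specifies copper cells of the midgut. Both genes span 29166 bases and their FPKM values stood in a ratio of 1.02 to 1.17 in 14 libraries, LOC118269819 over LOC118269817. In spinetoram 1 the second gene had 33.3 FPKM and the first 0. Only LOC118269819 was found in that RefSeq table, so that reads may have been divided between near-identical copies and the 2 values are uncertain one by one. Tested alone, LOC118269817 passed in no comparison (lowest adjusted p = 0.217, with tetrazolidamide). The sum of both does not depend on how reads were divided.

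Summed, the labial-like pair was at 19.3, 15.2 and 15.9 FPKM with emamectin benzoate, 35.3, 23.5 and 48.6 with tetrazolidamide, 16.8, 13.0 and 27.8 with cyantraniliprole, 33.3, 22.0 and 16.2 with spinetoram, and 10.47, 4.99 and 10.05 in control. All 12 treated libraries were above the 3 control libraries. The means were 16.8 ± 2.18 FPKM with emamectin benzoate, 35.8 ± 12.6 with tetrazolidamide, 19.2 ± 7.68 with cyantraniliprole and 23.8 ± 8.67 with spinetoram, against 8.50 ± 3.05 in control (SD, n = 3 each). With the counts of the pair summed before the fit, an alternative chosen after seeing the data, the pair rose with tetrazolidamide (log2 fold change 2.25, SE 0.41, adjusted p = 0.00264 by edgeR) and with spinetoram (1.60, SE 0.40, adjusted p = 0.0459). The fold changes with emamectin benzoate (1.06, adjusted p = 0.155) and cyantraniliprole (1.13, adjusted p = 0.140) did not pass. The summed pair was also higher with tetrazolidamide than over the mean of the other 3 treatments (0.99, SE 0.30, adjusted p = 0.0382).

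**Figure D2:**
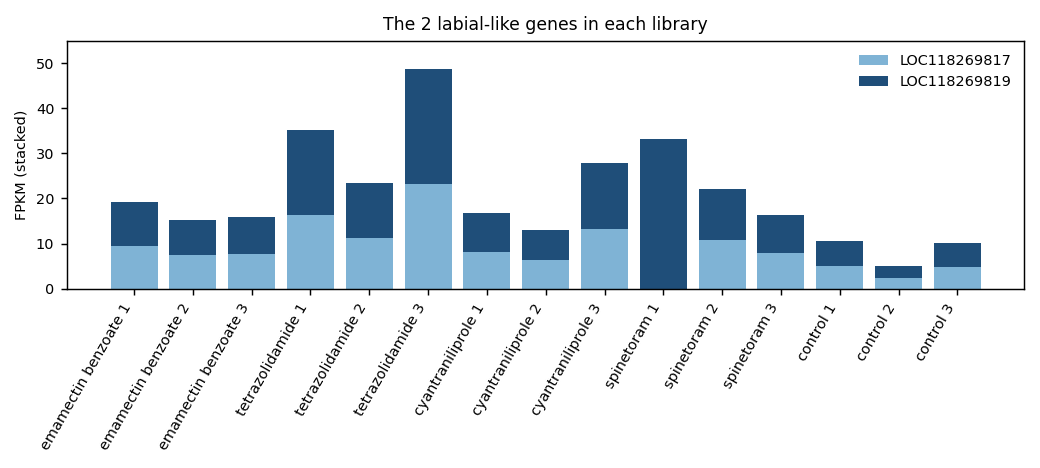
FPKM of the 2 labial-like genes in each library, stacked so that the bar height is their sum, with treated groups left of control. The genes share each bar almost equally in 14 libraries, LOC118269819 takes all of it in spinetoram 1, and the 3 control bars, at 4.99 to 10.47 FPKM, are the lowest.

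Each treatment was compared with the same 3 control libraries, so the 4 comparisons are not independent of each other. With tetrazolidamide, 9 of the 81 tested homeobox genes changed (11.1%), against 22.3% of all 15505 tested genes. Of these, 7 rose, against 10.9% of all genes, and 2 fell, against 11.4%. One gene changed with each of the other compounds, or 1.23% of the 81: it fell with emamectin benzoate (4.09% of all genes changed), fell with cyantraniliprole (2.62%) and rose with spinetoram (4.01%). Any difference among the 5 groups was called for 6 of the 81 (7.41%), against 22.2% of all genes. By edgeR the called share of homeobox genes was below that of all genes in each of these comparisons, and their median level was lower as well. At an unadjusted p under 0.05 the shares were 13.6% with emamectin benzoate (19.8% of all genes), 21.0% with tetrazolidamide (35.4%), 18.5% with cyantraniliprole (20.2%) and 22.2% with spinetoram (21.4%). The median log2 fold change over the 81 genes was -0.08 with emamectin benzoate, -0.23 with tetrazolidamide, -0.04 with cyantraniliprole and -0.11 with spinetoram, against 0.02, -0.07, -0.03 and -0.02 over all tested genes in the same order. DESeq2, run without the filter on low counts, called 6 of 59 homeobox genes with emamectin benzoate (10.2%, against 12.9% of all genes with an adjusted p), 16 of 88 with tetrazolidamide (18.2%, against 28.7%), 7 of 81 with cyantraniliprole (8.64%, against 9.95%) and 10 of 84 with spinetoram (11.9%, against 11.8%). With spinetoram the share by DESeq2 was thus no longer below that of all genes. For tetrazolidamide the DESeq2 calls were 8 higher and 8 lower. DESeq2 also called 7 of 84 for tetrazolidamide against the mean of the other 3 treatments (8.33%, against 26.4% of all genes) and 17 of 84 for any difference among the groups (20.2%, against 38.7%).

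**Figure D3:**
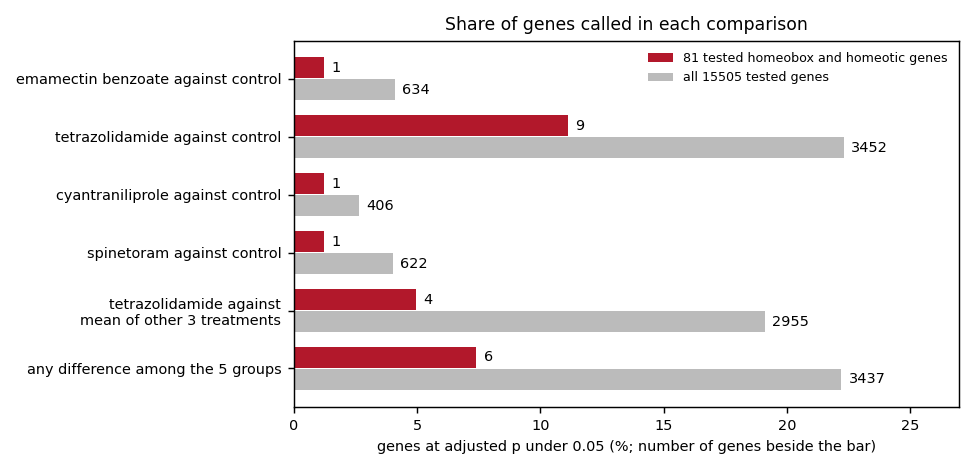
Percentage of the 81 tested homeobox and homeotic genes (red) and of all 15505 tested genes (grey) at an adjusted p under 0.05 in each comparison, with the number of genes beside each bar. The red bar is shorter than the grey bar in all 6 comparisons, with 11.1% against 22.3% for tetrazolidamide against control.

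Of the 7 genes that rose with tetrazolidamide, 4 were of the paired-like class, to which 16 of the 81 tested genes belong. The 4 include both ocelliless genes, between which reads may have been divided. The paired mesoderm homeobox 2A-like gene (LOC118263701, NC_049714.1, 10257557 to 10291022), whose vertebrate namesake sets the identity of autonomic nerve cells, had 2.30, 2.09 and 3.34 FPKM in the tetrazolidamide libraries, against 0.355, 0.493 and 0.666 FPKM in control. The other 3 treatments lay between 0.528 and 1.20 FPKM, so the 3 tetrazolidamide libraries stood above all the other 12. The log2 fold change against control was 2.52 (SE 0.37, adjusted p = 0.000905 by edgeR), and against the mean of the other 3 treatments it was 1.81 (SE 0.26, adjusted p = 0.000831). Both calls held in all 24 alternative settings. This was the smallest adjusted p of any homeobox gene.

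Both genes described as ocelliless, a regulator of head and brain also called orthodenticle, rose with tetrazolidamide. LOC118276864 (NC_049732.1, 7135576 to 7201376) had 1.23, 0.963 and 1.54 FPKM with tetrazolidamide, against 0.296, 0.284 and 0.217 in control (log2 fold change 2.37, SE 0.46, adjusted p = 0.00392 by edgeR). It was above control in all 12 treated libraries, at 0.550, 0.688 and 0.893 FPKM with emamectin benzoate, 0.735, 0.574 and 1.41 with cyantraniliprole and 0.481, 0.560 and 1.42 with spinetoram, without passing the test in those groups (adjusted p = 0.0895, 0.0695 and 0.0580). LOC118276870 (same sequence, 10407835 to 10475136) had 1.65, 1.15 and 1.68 FPKM with tetrazolidamide, against 0.528, 0.293 and 0.671 in control (1.75, SE 0.44, adjusted p = 0.0137). This copy had 1.28, 0.999 and 1.60 FPKM with emamectin benzoate, 1.07, 0.456 and 1.82 with cyantraniliprole and 1.22, 0.970 and 1.28 with spinetoram. The emamectin benzoate and spinetoram groups also lay above control, without passing the test (adjusted p = 0.0801 and 0.102), and the cyantraniliprole group overlapped control (adjusted p = 0.174). Its call was lost without tetrazolidamide 3 (adjusted p = 0.0513) or control 2 (0.0564). The difference between tetrazolidamide and the other treatments did not pass for either copy (adjusted p = 0.152 and 0.404). Only LOC118276870 is in that RefSeq table, so reads may have been divided between the copies.

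An aristaless-like gene (LOC118273532, NC_049727.1, 3287226 to 3369537), of a family that acts at the tips of appendages in Drosophila, had 1.42, 1.27 and 1.78 FPKM with tetrazolidamide, against 0.568, 0.718 and 0.826 in control. It rose (log2 fold change 1.24, SE 0.26, adjusted p = 0.00574 by edgeR), and this call was kept in all 24 alternatives. Against the mean of the other 3 treatments it was 0.74 higher (SE 0.20, adjusted p = 0.0236), and this call was lost without tetrazolidamide 1 (0.0561) or tetrazolidamide 3 (0.206), and by limma-trend on log2(FPKM + 0.1) (0.0543). A neighbouring aristaless-like gene (LOC118273374) had 2.07, 4.42 and 2.22 FPKM with tetrazolidamide, against 0.784, 1.80 and 2.43 in control, which overlapped, and it passed no test.

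A gene named notochord (LOC118278042, NC_049734.1, 11230903 to 11239706), after its vertebrate counterpart in the embryonic midline, was the third most abundant homeobox gene by mean FPKM. It had 18.3, 17.3 and 16.0 FPKM with tetrazolidamide, against 9.46, 7.28 and 7.37 in control, and rose (log2 fold change 1.22, SE 0.36, adjusted p = 0.0286 by edgeR). The same fold change with spinetoram, 1.22, came from libraries at 19.7, 22.3 and 10.1 FPKM, which spread more, and did not pass (adjusted p = 0.0759). Cyantraniliprole libraries, at 13.5, 10.1 and 23.1 FPKM, were above control as well. Those of emamectin benzoate, at 10.9, 7.94 and 14.3 FPKM, overlapped control, and neither group passed. The tetrazolidamide call was lost without tetrazolidamide 1, 2 or 3, control 2 or control 3, with adjusted p between 0.0513 and 0.0900. The Hox-A2 gene (LOC118279865, NC_049737.1, 7954897 to 7983523), named after a vertebrate Hox gene of the hindbrain, had 0.693, 0.885 and 0.588 FPKM with tetrazolidamide, against 0.324, 0.112 and 0.504 in control (1.34, SE 0.41, adjusted p = 0.0366). Its means with the other compounds, 0.597 to 0.744 FPKM, were near the 0.722 FPKM of tetrazolidamide. The Hox-A2 call was lost in 12 of 23 alternatives, among them leaving out any one tetrazolidamide, cyantraniliprole or spinetoram library, control 1 or control 2 (adjusted p 0.0512 to 0.0952).

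Cuticle genes moved with tetrazolidamide too: 38 of 71 tested cuticle markers rose and 4 fell. Their summed level was 31325 to 40699 FPKM with tetrazolidamide and 25837 to 37360 FPKM in control. It was 45802 to 46788 FPKM with emamectin benzoate, 26393 to 29769 FPKM with cyantraniliprole and 25832 to 38179 FPKM with spinetoram. With these 3 compounds 4, 5 and 12 of the 71 rose and 0 fell, where 4.09%, 2.62% and 4.01% of all genes changed. Over all tested genes, 10.9% rose and 11.4% fell with tetrazolidamide, the shares to set beside each tetrazolidamide marker count here. Midgut markers rose in 13 and fell in 2 of 79 tested, with a summed level of 3028 to 4132 FPKM against 3102 to 3877 FPKM in control. With the other compounds the midgut sum was above every control library. It was 12564 to 15943 FPKM with emamectin benzoate, 4185 to 8103 FPKM with cyantraniliprole and 9630 to 12986 FPKM with spinetoram. Neuron markers rose in 1 and fell in 1 of 14, muscle markers changed in 0 of 14, fat body markers rose in 2 and fell in 4 of 16, and germ line markers rose in 2 and fell in 3 of 33. The part of these tissues in the homeobox changes was not tested.

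**Figure D4:**
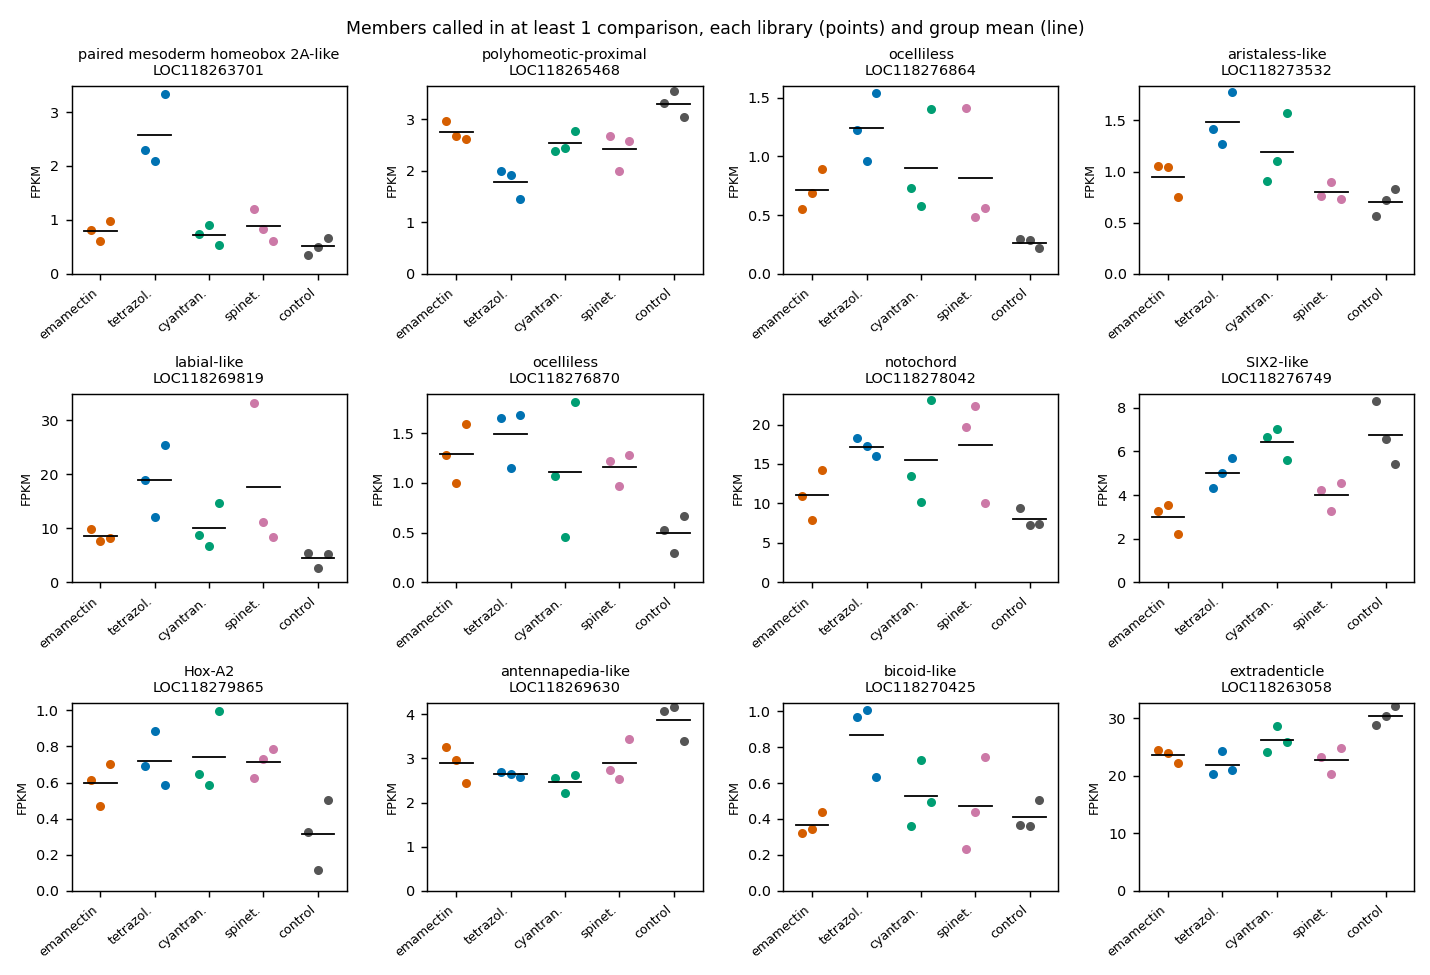
FPKM (linear axis from 0) of the 12 homeobox and homeotic genes called in at least 1 comparison, with each library as a point and the group mean as a line, treated groups left of control. The paired mesoderm homeobox 2A-like gene is at 2.09 to 3.34 FPKM in the tetrazolidamide libraries and at most 1.20 FPKM in the other 12, while extradenticle and polyhomeotic are highest in control.

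The 2 genes that fell with tetrazolidamide were a Polycomb protein and a Hox cofactor. Polyhomeotic-proximal (LOC118265468, NC_049710.1, 13622576 to 13662897), a subunit of the complex that silences Hox genes, had 1.99, 1.91 and 1.46 FPKM with tetrazolidamide, against 3.31, 3.55 and 3.04 in control (log2 fold change -0.76, SE 0.13, adjusted p = 0.00240 by edgeR). It had 2.97, 2.68 and 2.61 FPKM with emamectin benzoate, 2.39, 2.45 and 2.77 with cyantraniliprole and 2.68, 1.99 and 2.57 with spinetoram, so that every treated library was below every control library. Against the mean of the other 3 treatments tetrazolidamide was lower (log2 fold change -0.43, SE 0.11, adjusted p = 0.0199), and that call was lost without tetrazolidamide 2 (0.0605) or tetrazolidamide 3 (0.0829).

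Extradenticle (NC_049713.1, 4464267 to 4470967) had 24.6, 24.0 and 22.3 FPKM with emamectin benzoate, 20.4, 24.3 and 21.1 with tetrazolidamide, 24.1, 28.6 and 25.9 with cyantraniliprole and 23.3, 20.3 and 24.8 with spinetoram, against 28.9, 30.5 and 32.1 in control. All 12 treated libraries were below control, by little, and only tetrazolidamide passed the test (log2 fold change -0.34, SE 0.11, adjusted p = 0.0468 by edgeR). That call was lost in 12 of 24 alternatives, including without any one emamectin benzoate library, tetrazolidamide 1 or 2, cyantraniliprole 1, spinetoram 1, and control 1 or 2 (adjusted p 0.0561 to 0.166). The fold changes with the other 3 compounds were -0.30, -0.27 and -0.31 for emamectin benzoate, cyantraniliprole and spinetoram (adjusted p = 0.149, 0.196 and 0.129). Homothorax, its partner (LOC118275404), showed the same order, with 6.65 to 10.02 FPKM over the 12 treated libraries against 11.01 to 11.99 FPKM in control, and passed no test (log2 fold changes -0.48 to -0.36, lowest adjusted p = 0.148). A second gene described as homothorax (LOC118266896), absent from that RefSeq table, had 1.36 to 3.36 FPKM over the treated libraries. It overlapped control, at 2.32 to 2.94 FPKM, and was highest in cyantraniliprole 3.

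Counted over the 81 tested genes, 3 lay below control in all 12 treated libraries (3.70%, against 1.92% of all tested genes), namely extradenticle, homothorax LOC118275404 and polyhomeotic-proximal. Above control in all 12 lay 2 (2.47%, against 2.01%), the ocelliless gene LOC118276864 and the labial-like gene LOC118269819. This count was added after the levels had been seen and carries no test.

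With emamectin benzoate the one call was a SIX2-like gene (LOC118276749, NC_049732.1, 1439290 to 1478458), of the sine oculis family that works in eye, muscle and head formation. It had 3.28, 3.55 and 2.20 FPKM with emamectin benzoate, against 8.32, 6.58 and 5.43 in control, and fell by 1.13 on the log2 scale (SE 0.24, adjusted p = 0.0288 by edgeR). It was at 4.34, 5.01 and 5.70 FPKM with tetrazolidamide, 6.66, 7.05 and 5.61 with cyantraniliprole and 4.24, 3.26 and 4.56 with spinetoram, where no comparison with control passed. The call was lost without emamectin benzoate 1 (adjusted p = 0.0836) or 3 (0.129), without control 1 (0.0789) or 2 (0.0509), and with only the compared groups in the fit (0.136). The gene was also one of the 6 called for any difference among the groups (adjusted p = 0.0257).

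With cyantraniliprole the one call was Antennapedia (NC_049722.1, 5303988 to 5428391), with 2.55, 2.21 and 2.63 FPKM, against 4.08, 4.16 and 3.40 in control. The log2 fold change was -0.72 (SE 0.17, adjusted p = 0.0449 by edgeR). With emamectin benzoate it had 3.26, 2.97 and 2.45 FPKM, with tetrazolidamide 2.69, 2.64 and 2.58, and with spinetoram 2.73, 2.53 and 3.43, so that the spinetoram group alone overlapped control. Their fold changes of -0.37, -0.43 and -0.32 did not pass (adjusted p = 0.236, 0.0863 and 0.279). The cyantraniliprole call was kept in 6 of 24 alternatives and was lost without any one emamectin benzoate, tetrazolidamide or cyantraniliprole library, spinetoram 1 or 2, or control 1 or 2 (adjusted p 0.0523 to 0.149).

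With spinetoram the one call was the labial-like gene LOC118269819 (log2 fold change 2.10, SE 0.51, adjusted p = 0.0429 by edgeR), whose 33.3 FPKM in spinetoram 1 stood beside 0 for its copy. Its call was lost in 15 of 25 alternatives, including without spinetoram 1 (1.31, adjusted p = 0.153) and without emamectin benzoate 1, 2 or 3, tetrazolidamide 1, cyantraniliprole 1, 2 or 3, spinetoram 2, or control 1, 2 or 3 (0.0549 to 0.164). With tetrazolidamide the same gene, at 19.0, 12.2 and 25.5 FPKM against 5.42, 2.56 and 5.26 in control, passed in all 25 alternatives (2.27, SE 0.52, adjusted p = 0.00864).

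Against the mean of the other 3 treatments, tetrazolidamide differed in 4 of the 81 genes (4.94%, against 19.1% of all genes). Of these, 3 are given above, the paired mesoderm homeobox 2A-like, aristaless-like and polyhomeotic-proximal genes. The fourth was a bicoid-like gene (LOC118270425, NC_049723.1, 10540651 to 10545369), named after the anterior determinant of the Drosophila egg, with 0.967, 1.01 and 0.632 FPKM with tetrazolidamide. Its other treated libraries ran from 0.232 to 0.748 FPKM and overlapped (log2 fold change 1.02, SE 0.32, adjusted p = 0.0451 by edgeR). This call was kept in 8 of 23 alternatives and lost without any one emamectin benzoate, tetrazolidamide or control library, cyantraniliprole 1 or 3, or spinetoram 2 (0.0540 to 0.148). Only its copy LOC118270759 is in that RefSeq table. That copy had 1.77, 2.76 and 1.05 FPKM with tetrazolidamide, against 1.00 to 2.15 FPKM in its other treated libraries. These overlapped, and the copy was not called.

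Steadiness was described by the coefficient of variation (CV) of FPKM over the 15 libraries for the 36 homeobox genes that averaged at least 1 FPKM. Their median CV was 35.9%, against 30.9% over all 10431 genes of the table that averaged at least 1 FPKM. These sets were not matched for level: 28 of the 36 averaged under 5 FPKM, against 4611 of the 10431. The highest library was under 2 times the lowest in 4 of the 36 (11.1%), against 21.3% of all those genes. These 4 were extradenticle, caupolican, homothorax LOC118275404 and Antennapedia, of which 3 are TALE genes. Among genes averaging at least 5 FPKM, the same shares were 25% of 8 homeobox genes and 26.4% of all genes. Extradenticle was steadiest, with a CV of 14.4% between 20.3 and 32.1 FPKM, although it was also one of the called genes. Caupolican had a CV of 16.7%, between 1.78 and 3.10 FPKM, and none of its groups differed from control by more than 0.28 on the log2 scale. Homothorax LOC118275404 followed with 17.7%, the muscle segmentation homeobox-like gene (LOC118270659), whose Drosophila counterpart patterns nerve cord and muscle, with 19.9%, Antennapedia with 19.95% and polyhomeotic-proximal with 21.8%. The second homothorax gene (LOC118266896) had a CV of 28.0%.

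**Figure D5:**
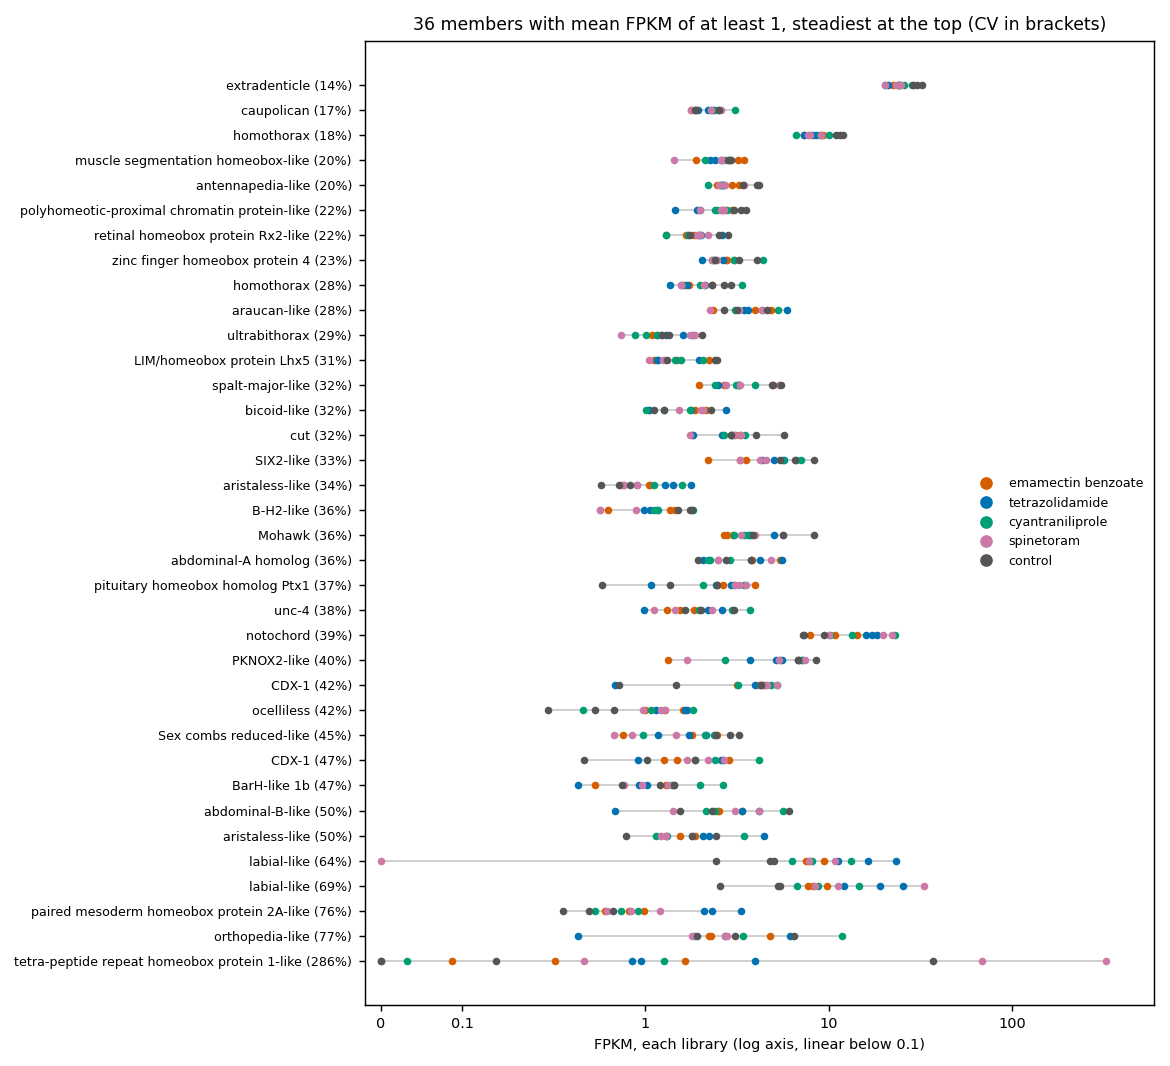
FPKM in each library (points coloured by group, log axis that is linear below 0.1) for the 36 homeobox and homeotic genes that averaged at least 1 FPKM, ordered by CV with the steadiest at the top and the CV in brackets. Extradenticle stays between 20.3 and 32.1 FPKM, and the tetra-peptide repeat gene at the bottom runs between 0 and 326 FPKM.

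The least steady was a tetra-peptide repeat homeobox 1-like gene (LOC118267666), which had the highest mean of all the homeobox genes, 29.5 FPKM, from 3 libraries. It had 69.1, 0.463 and 326 FPKM with spinetoram, between 0 and 3.99 FPKM in the 9 libraries of the other compounds, and 37.1, 0.152 and 0 FPKM in control. Its median over the 15 libraries was 0.844 FPKM and it passed no test. Orthopedia-like (LOC118279313), of neurosecretory brain cells in other animals, had a CV of 77.04%, between 0.430 FPKM in tetrazolidamide 3 and 11.8 FPKM in cyantraniliprole 2. The paired mesoderm homeobox 2A-like gene had a CV of 76.0%, which came from its 3 tetrazolidamide libraries.

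Some genes were low in the same libraries. The CDX-1 gene LOC118263419, of the caudal family that acts in gut and hind body, had 3.15, 4.16 and 4.47 FPKM with emamectin benzoate, 4.34, 3.98 and 0.678 with tetrazolidamide, 3.19, 4.87 and 5.25 with cyantraniliprole, 4.27, 4.58 and 5.20 with spinetoram, and 0.715, 1.48 and 4.25 in control. Tetrazolidamide 3, control 1 and control 2 were low and the other 12 lay between 3.15 and 5.25 FPKM. Its copy LOC118263420 was lowest in tetrazolidamide 3 (0.915 FPKM), control 1 (0.460 FPKM) and control 2 (1.02 FPKM) as well. The Ptx1 gene (LOC118265365), of the pituitary homeobox family, was also lowest there, with 1.08 FPKM in tetrazolidamide 3, 0.580 FPKM in control 1 and 1.37 FPKM in control 2. Abdominal-B and orthopedia-like shared the low value of tetrazolidamide 3 as well but were at 2.30 and 3.08 FPKM in control 2. None of these 5 genes passed a test between groups.

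Related genes without the word homeobox and the regulators of Hox genes were read from 2 further lists. Of 10 paired box, POU domain and apterous-like genes, 8 were tested and 1 changed with tetrazolidamide, paired box protein Pax-1 (LOC118275791), of a group that has a paired domain but no homeodomain. It had 1.68, 1.45 and 1.62 FPKM with tetrazolidamide, against 0.438, 0.951 and 1.01 in control (log2 fold change 1.14, SE 0.35, adjusted p = 0.0343 by edgeR). It was also above the mean of the other 3 treatments (1.23, SE 0.26, adjusted p = 0.00752). Of 20 Polycomb and trithorax genes, which hold Hox genes off or on, 6 fell and 2 rose with tetrazolidamide, against 11.4% of all genes lower and 10.9% higher. Those that fell were RING1, EED, suz12-B, osa and both ash1 genes, with log2 fold changes between -1.20 (ash1, LOC118274256, adjusted p = 0.00358) and -0.46 (RING1, LOC118264175, adjusted p = 0.0233). Those that rose were a GAGA-like factor (LOC118273137, 0.49, adjusted p = 0.00898) and an scm-like protein with MBT domains (LOC118275544, 0.57, adjusted p = 0.00787). The median log2 fold change of the 20 was -0.31 with tetrazolidamide, against -0.07 over all tested genes. The ash1 gene LOC118274256 also fell with spinetoram, at 1.89, 1.93 and 1.31 FPKM against 2.97, 5.46 and 4.39 in control (-1.20, SE 0.23, adjusted p = 0.0196), and the GAGA-like factor rose with emamectin benzoate (0.45, SE 0.11, adjusted p = 0.0460). None of the 20 changed with cyantraniliprole by edgeR.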

How the data were processed

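Per the labels' protocols, poly(A) RNA from whole bodies was made into strand-specific libraries by the dUTP method. The submitters' processing notes name edgeR, DESeq2, StringTie 1.3.4d, HISAT2 2.0.4 and cutadapt 1.9 without their roles, and the build is not given in the sources used here. The deposited table gives the authors' estimated counts, as whole numbers, and FPKM values, with 0.0001 wherever the count is 0 (set to 0 here). The estimated counts were used as deposited.

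Levels are the authors' FPKM. Tests used edgeR 4.0.16 in R 4.3.3: the quasi-likelihood test, two-sided, with TMM factors and filterByExpr at a minimum count of 10, in one model with a coefficient for each of the 5 groups fitted to 15505 genes in all 15 libraries, with Benjamini-Hochberg adjustment over all of them and a threshold of 0.05. The common dispersion was 0.300, or 54.8% as what edgeR calls a biological CV. It was fitted to units of which about 3.76 make 1 read pair, so it may include counting error. The minimum count of 10 is in the same units. Alternatives were DESeq2 1.42.0 (shares over genes with an adjusted p), its size factors in edgeR, no filter, a stricter filter, a replicate block, a model restricted to the compared groups, limma-trend (3.58.1) on log2(FPKM + 1) and log2(FPKM + 0.1), counts per read pair, and leaving out each library. Intervals and floors cover counting error only.

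The members and lists were chosen with earlier results of these data known. Genes named are those called in a comparison with control or with the other treatments, all with Hox names, the 5 with the highest mean, and the 6 smallest and 3 largest CVs among means of at least 1 FPKM. Others, such as the CDX-1, Ptx1, Lhx5, araucan-like and engrailed-like genes and the second aristaless-like, homothorax and bicoid-like genes, were chosen after their values were seen. Classes and lists are patterns on the descriptions, which come from similarity to other species. The RefSeq table of assembly AGI-APGP_CSIRO_Sfru_2.0, used for names only, held 92 of the 128 identifiers. Of 22 descriptions borne by 2 genes with reads, 17 had 1 of the copies in that assembly, so reads may have been split between copies. How strand was used in counting is not given in the sources used here.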

Additional observations from a re-analysis of the deposited data

How the results depend on the processing

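No called gene reversed its direction under any alternative. Of the results of single called genes, 168 kept their side of the threshold when 1 library was left out and 72 lost their call, and under the other alternatives 128 were kept, 18 lost a call and 1 gained one. Calls among the homeobox genes moved as follows. DESeq2 called 6 with emamectin benzoate (10.2% of those with an adjusted p, against 12.9% of all genes), 16 with tetrazolidamide (18.2%, against 28.7%), 7 with cyantraniliprole (8.64%, against 9.95%), 10 with spinetoram (11.9%, against 11.8%), 7 for tetrazolidamide against the other treatments (8.33%, against 26.4%) and 17 for any difference (20.2%, against 38.7%). With only the groups compared in the fit, 0 were called with emamectin benzoate, cyantraniliprole and spinetoram, where 0, 0 and 2 of all genes were called. With cyantraniliprole 0 were called with no filter and by limma-trend on log2(FPKM + 1) and log2(FPKM + 0.1), where 327, 607 and 570 of all genes were called. Limma-trend on log2(FPKM + 0.1) called 14 with tetrazolidamide, 7 higher and 7 lower (17.3%, against 23.0% of all genes). The stricter filter and counts per read pair gave 2 each with emamectin benzoate and with spinetoram. Of all genes these settings called 754 and 746 with emamectin benzoate, and 752 and 739 with spinetoram. Leaving out 1 library gave 0 to 2 calls with emamectin benzoate, 5 to 10 with tetrazolidamide (5 without control 2), 0 to 3 with cyantraniliprole, 0 to 3 with spinetoram, 2 to 7 for tetrazolidamide against the other treatments and 3 to 8 for any difference (3 without tetrazolidamide 1). Calls over all genes moved widely too. In the same order, any difference left out, they ran from 36 to 725, 2356 to 3426, 76 to 1149, 35 to 1075 and 1491 to 3245. The cause of these shifts was not tested. The median CV was 39.4% for the 8 genes averaging at least 5 FPKM (29.0% over all such genes), 35.9% on CPM (30.3%) and 36.4% without the tetrazolidamide libraries (28.3%). In the same order, the highest library was under 2 times the lowest in 25%, 8.33% and 17.6% of the homeobox genes. Over all genes the shares were 26.4%, 25.1% and 30.9%.

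Replicate numbers did not pair the samples: deviations of same-numbered libraries correlated between -0.254 and 0.307 over 30 pairs, against -0.431 to 0.299 over 60 pairs with different numbers. With a replicate block 1 gene was called with emamectin benzoate (1.23%, against 2.35% of all genes). It was the ocelliless gene LOC118276870, which was higher (log2 fold change 1.49, adjusted p = 0.0283), while the SIX2-like gene LOC118276749 was not called (-1.12, adjusted p = 0.0509). The block gave 8 calls with tetrazolidamide (9.88%, against 20.03% of all genes), without extradenticle (adjusted p = 0.0714). It gave 0 with cyantraniliprole, where 1.83% of all genes were called and Antennapedia was not (adjusted p = 0.0745). With spinetoram 2 were called (2.47%, against 2.88% of all genes). Tetrazolidamide against the other treatments gave 4 (4.94%, against 16.82%), and any difference gave 6 (7.41%, against 16.97%).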
